A study of Mus musculus with 32 samples.

Results

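The collagens, laminins and lysyl oxidases were taken as the 60 genes with a non-zero value whose symbol follows the names of collagen chains (44 genes), laminin chains (11 genes) or the lysyl oxidases Lox and Loxl1 to Loxl4 (5 genes). They are 60 of the 19697 genes with any count in the series, and 45 of them (30, 11 and 4) passed the filter on low counts. The filter asks for enough counts in groups of 2 libraries, so a gene high in few groups could still pass. RNA was sequenced from E14, a mouse embryonic stem cell line of wild-type genotype. The control arm, ESC, grew in high-glucose DMEM with serum and LIF, to which CHIR99021, which blocks GSK3, and PD0325901, which blocks MEK, had been added. The treated arm, NrESC, received the same medium plus 10 µM T0901317, a drug that switches on the oxysterol-sensing nuclear receptors LXR alpha and beta. Both arms grew on gelatin, itself made from collagen, so the cells had a collagen-derived coat from outside. Passages 0, 2, 4, 6, 8, 10, 12 and 14 of each arm were sampled with 2 libraries each, 32 libraries in 16 groups. Passage 0 of NrESC is labelled as treated, and the labels give no length of treatment at that point. Nor do they say that the 2 libraries of a group were separate cultures. The p-values at single passages and for the variation among passages therefore measure the spread between these samples only, which may be technical. Those of the mean of 8 passages and of the slopes measure the spread between passages, taken as independent units. All libraries come from 1 line, and the passages of an arm may follow on from each other, which none of these tests allows for.

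Collagens are proteins of 3 chains wound into a helix. The fibrillar types (I, II, III, V, XI) form cables in connective tissue, type IV forms the network of basement membranes, and other types decorate fibrils or cross the cell membrane. Laminins join 1 alpha, 1 beta and 1 gamma chain, and chains alpha 1, alpha 5, beta 1, beta 2 and gamma 1 make up the laminins of the first basement membranes of the embryo. Lysyl oxidases are copper enzymes that oxidise lysines of collagen and elastin so that the chains become cross-linked. In early mouse embryos primitive endoderm and its parietal derivative are strong sources of type IV collagen and of the laminin of chains alpha 1, beta 1 and gamma 1.

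Most of these transcripts have separate promoters, but Col4a1 and Col4a2, whose products assemble as 1 heterotrimer, are transcribed away from each other from starts that overlap. RefSeq places the annotated starts on chr8:11312801-11312830 (GRCm38.p6), and the 30 bases are shown because both genes begin in them. The capitals mark the 22 bases from the Col4a2 start (11312805, plus strand) to the Col4a1 start (11312826, minus strand).

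Col4a2 and Col4a1 starts, plus strand: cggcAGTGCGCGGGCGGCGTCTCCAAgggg

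The 522 bases around them (chr8:11312555-11313076) were 73.9% G or C and held 61 CpG pairs. They also held 3 copies of the GC box GGGCGG and 2 of CCAAT, counted on both strands, and no copy of AGGTCA, the half-site of nuclear receptors. The 250 bases before the start of Lama5 (chr2:180225860-180226109, minus strand) and of Col5a1 (chr2:27886175-27886424, plus strand) are shown as promoters of a laminin chain and a fibrillar collagen chain that moved in opposite directions. Capitals mark GGGCGG or its reverse complement CCGCCC, found 4 times in the first and 2 times in the second.

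Lama5 promoter, 5′ to 3′: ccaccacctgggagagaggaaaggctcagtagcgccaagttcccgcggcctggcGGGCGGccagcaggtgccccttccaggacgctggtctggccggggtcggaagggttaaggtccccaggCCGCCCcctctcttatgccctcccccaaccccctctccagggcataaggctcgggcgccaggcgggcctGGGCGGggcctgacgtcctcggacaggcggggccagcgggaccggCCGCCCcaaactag

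Col5a1 promoter, 5′ to 3′: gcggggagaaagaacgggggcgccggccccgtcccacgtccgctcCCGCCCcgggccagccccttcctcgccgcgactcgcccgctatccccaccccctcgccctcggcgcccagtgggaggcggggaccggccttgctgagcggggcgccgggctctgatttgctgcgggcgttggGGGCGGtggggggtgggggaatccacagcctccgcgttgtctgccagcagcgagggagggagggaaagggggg

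RefSeq gave 45 windows of 300 bases (250 before and 50 after a start) for 41 of the 60 genes. GGGCGG was in 27 of them (60.0%) against 35.6% of all 32817 windows, CCAAT in 14 (31.1% against 37.4%) and AGGTCA in 8 (17.8% against 16.3%). A pair of exact AGGTCA half-sites in 1 direction with 4 bases between them, the kind of element LXR is known to bind, was in none of these 45 windows and in 5 of all windows. These are letter matches in a short stretch and say nothing of binding.

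Library totals ran from 24989651 to 45818061 counts in ESC and from 25062538 to 50463483 in NrESC, and TMM scaling factors from 0.979 to 1.03. The LXR targets Abcg1 (log2 fold change 4.17, SE 0.0787) and Abca1 (3.10, SE 0.0805) rose with treatment, which checks the labels. Both passage 8 libraries of NrESC lay away from the other NrESC libraries, at 51.1 and 51.7 on the first principal component of log2 CPM (35.9% of the variance), where the others lay between 10.9 and 32.8. The summed TPM of the 9 embryonic stem cell markers was 9313 to 10775 in ESC and 10077 to 12474 in NrESC, none was at 0, and Dppa5a and Pou5f1 held most of it. In the mean 3 of the 9 rose (Dppa5a by 0.45, Pou5f1 and Tfcp2l1 by 0.15 each). Another 3 fell (Nanog by 0.45, Sox2 and Zfp42 by 0.32 each). Markers of primitive and parietal endoderm, 14 genes that exclude the collagens and laminins, summed to 18.6 to 26.8 TPM in ESC and 16.2 to 27.4 in NrESC, with Afp at 0 in every NrESC library. Of 11 fibroblast markers, Lum was at 0 in all 32 libraries and Postn in all NrESC libraries, and their sum of 220 to 274 TPM in ESC and 126 to 204 in NrESC was mostly Vim. In bulk RNA a change in the number of cells of a type cannot be told apart from a change in RNA per cell.

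Laminin chains held most of the transcript mass of the whole set. Levels are given in TPM, the authors' length-corrected share of transcripts. Laminins made up 65.5% to 73.7% of the set's summed TPM in ESC and 66.7% to 75.6% in NrESC, collagens 24.6% to 30.9% and 22.8% to 31.8%, and lysyl oxidases 1.14% to 3.57% and 1.35% to 3.17%. The sum itself was 342 to 458 TPM in ESC and 324 to 464 in NrESC, and its 4 highest libraries were those of passage 8 in both arms (458 and 451 in ESC, 458 and 464 in NrESC). Among the chains that can pair, gamma chains exceeded beta chains, by a median ratio of 5.90 (4.87 to 6.79) in ESC and 4.86 (3.33 to 5.48) in NrESC.

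The highest transcript was Lamc1, the gamma 1 chain common to most laminins, at a lowest, median and highest TPM of 127, 151 and 175 in ESC and of 114, 133 and 150 in NrESC. Col18a1, the collagen whose end fragment is endostatin, came next, at 48.3, 55.8 and 70.5 in ESC and 41.9, 58.0 and 73.0 in NrESC. The alpha 5 chain gene Lama5 followed at 36.1, 42.6 and 47.0 in ESC and 40.7, 48.4 and 53.2 in NrESC. Within each arm no library of Lamc1 was as low as one of Col18a1. Col18a1 and Lama5 overlapped in NrESC, while in ESC every library of Col18a1 lay above those of Lama5. Further down, Lama1, Lamb2, Lamb1, Col9a2, Col4a1 and Col5a1 each overlapped the next in both arms.

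**Figure D1:**
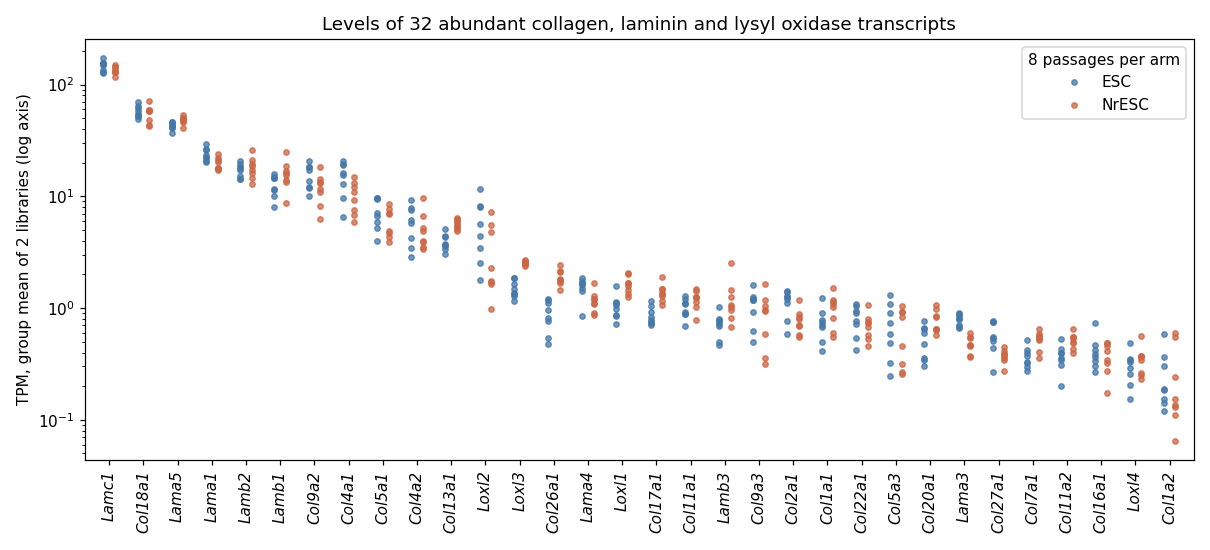
TPM of 32 abundant collagen, laminin and lysyl oxidase genes (vertical log axis), ordered by that mean, with 1 point for each group mean of 2 libraries (8 passages of ESC in blue, 8 of NrESC in orange). Lamc1 exceeds all others, Lama5 and Lama1 lie above every fibrillar collagen while Lama4, Lamb3 and Lama3 lie below Col5a1, and the points of Loxl2 spread over a wide range in both arms.

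Against the untreated arm, members moved in both directions. In the mean of 8 passages, with passage as the unit, 29 of 45 tested members were called at an adjusted p under 0.05, 15 higher and 14 lower in NrESC, or 64.4% of them. Of all 15036 tested genes 55.5% were called (28.3% up, 27.2% down), so the number called in this set is not far above the background. The members' median absolute log2 fold change was 0.41, against 0.19 for all genes. The members also spread more between the 2 libraries of a group (0.141 against 0.0707 for all genes, as the median SD of log2 values) and between passages (0.251 against 0.142 in ESC, 0.24 against 0.163 in NrESC), and the part of that spread in the larger changes was not tested. A change of over 2-fold was seen in 1 member upward and 2 downward, against 1.64% and 3.13% of all genes. The 2 downward were Col5a2 and Col12a1, and Col12a1 had at most 13 counts in any library.

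**Figure D2:**
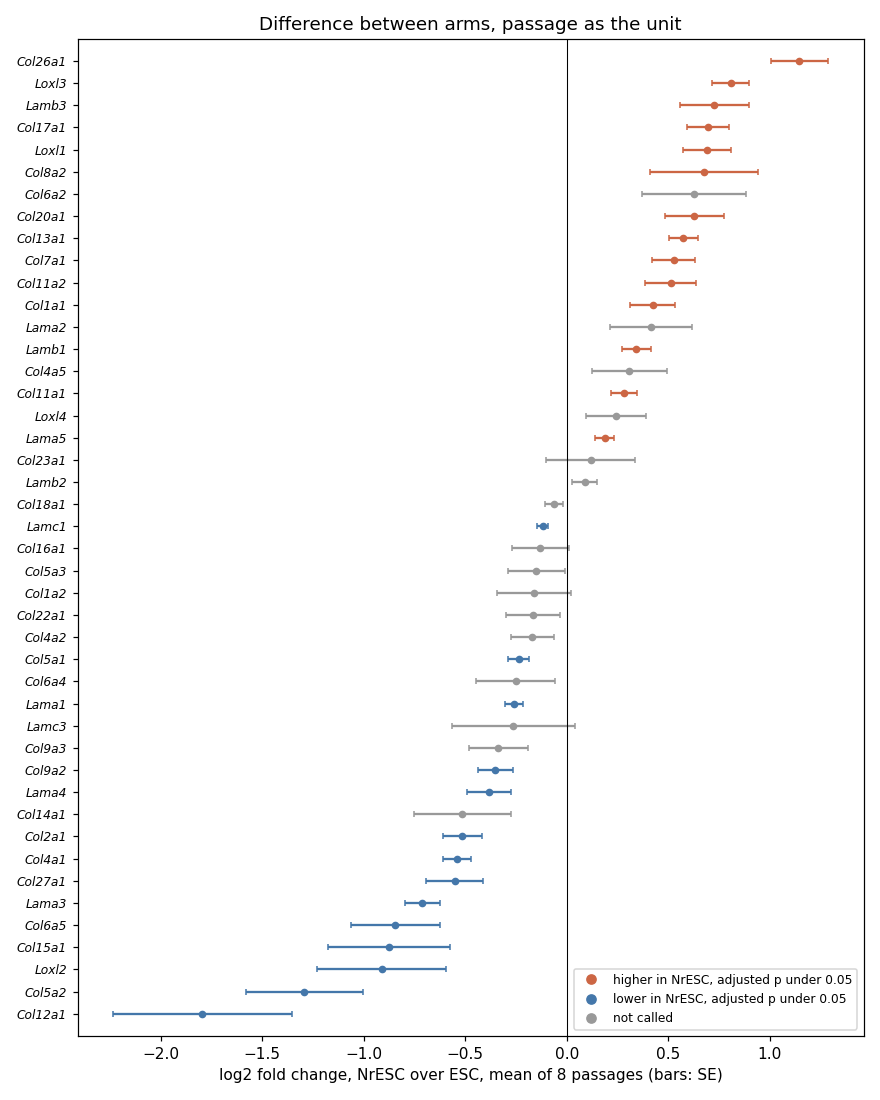
Log2 fold change of NrESC over ESC in the mean of 8 passages (horizontal axis, bars are SE) for 44 of the 45 tested genes in order of size, with genes called higher in orange, called lower in blue and not called in gray. The largest values are Col26a1 at 1.15 and Col12a1 at -1.79, and both signs occur in each family. Col12a1 had at most 13 counts in any library.

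Among the laminin chains of early basement membranes, treatment moved the 2 alpha chains in opposite directions. Lama5 rose by 0.19 (SE 0.0448, adjusted p = 0.00423), in 6 of 8 passages past the threshold, while Lama1 fell by 0.26 (SE 0.0429, adjusted p = 0.000408), at all 8. Lama1 was at 19.9, 23.0 and 29.7 TPM in ESC (lowest, median, highest) and at 17.3, 19.2 and 24.0 in NrESC, and the arms overlapped. The ratio of Lama5 to Lama1 was 1.80 ± 0.21 in ESC and 2.46 ± 0.363 in NrESC (SD over 8 passages) and was higher in NrESC at 8 of 8 passages. Lamc1 fell by 0.12 (SE 0.0274, adjusted p = 0.0034), a small change called at 7 passages. The beta 1 chain Lamb1 rose by 0.34 (SE 0.0716, adjusted p = 0.00184), from a median of 13.1 TPM to 15.9, and its libraries of NrESC at passage 8 were the highest, at 25.0 and 25.3. Lamb2, the beta 2 chain, was not called in the mean (0.09, SE 0.0609, adjusted p = 0.236).

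The alpha 3 and beta 3 chains, which occur together in a laminin of epithelia, moved in opposite directions. Lamb3 rose by 0.73 (SE 0.171, adjusted p = 0.00371), while Lama3 fell by 0.71 (SE 0.0842, adjusted p = 4.93e-05). Both stayed low, at medians of 0.685 (Lamb3) and 0.79 TPM (Lama3) in ESC and 1.08 and 0.495 in NrESC. Lamb3 was highest in NrESC at passage 8, at 2.29 and 2.79 TPM. The alpha 4 chain Lama4, typical of endothelium, fell by 0.38 (SE 0.11, adjusted p = 0.0115).

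**Figure D3:**
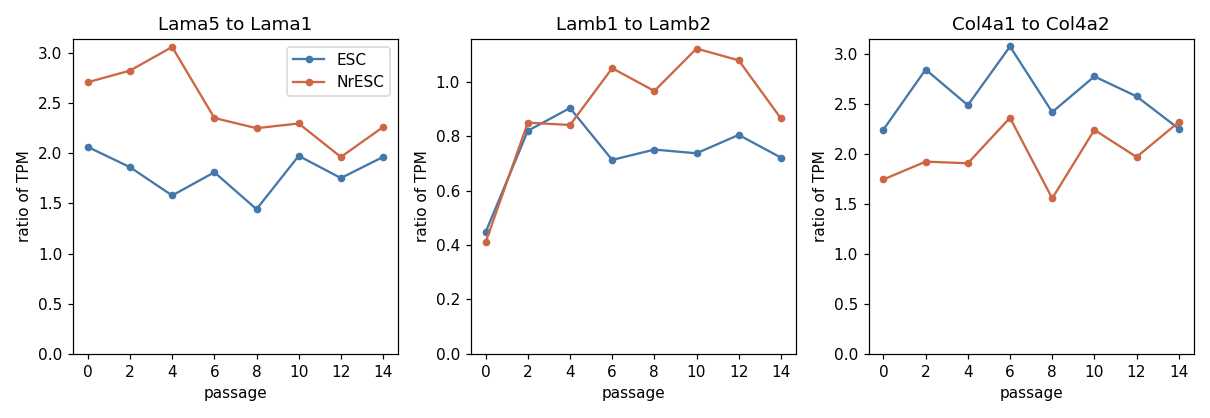
Ratio of TPM, taken in each library and averaged over the 2 libraries of a group, over passage number for 3 chain pairs in ESC (blue) and NrESC (orange). Lama5 to Lama1 is higher in NrESC at all 8 passages and Lamb1 to Lamb2 at 6 of 8, while Col4a1 to Col4a2 is higher in NrESC at 1 of 8.

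Of the 2 main chains of type IV collagen, Col4a1 was called lower in the mean and Col4a2 was not. Whether the differences of the 2 chains were unlike was not tested. Col4a1 was at 6.48, 15.7 and 21.2 TPM in ESC (lowest, median, highest) and at 5.86, 10.3 and 15.2 in NrESC, and fell by 0.54 (SE 0.0702, adjusted p = 8.48e-05). The values of its partner Col4a2 were 2.85, 5.98 and 9.36 TPM in ESC and 3.31, 4.30 and 9.58 in NrESC, and it was not called in the mean (-0.17, SE 0.106, adjusted p = 0.194). Without passage 8 it was called (-0.24, adjusted p = 0.0489). At the single passages Col4a1 was called lower at 7 of 8, with the largest drop at passage 4 (-0.93), whereas Col4a2 was called higher at passages 0 (0.21) and 8 (0.33) and lower at passages 4 (-0.55), 10 (-0.23), 12 (-0.17) and 14 (-0.81). The ratio of Col4a1 to Col4a2 was 2.59 ± 0.295 in ESC and 2.00 ± 0.285 in NrESC (SD over 8 passages). Col4a2 was chosen after its values were seen, as the partner that shares the start region with Col4a1. Their annotated transcripts overlap by 22 bases, and the strand setting of the counting is not given. Col18a1, the other basement membrane collagen of high level, was not called (-0.06, SE 0.0446, adjusted p = 0.259), and Col15a1, its close relative, was lower by 0.87 (SE 0.3, adjusted p = 0.0271) at a median of 0.07 TPM in ESC and 0.03 in NrESC. That call for Col15a1 was lost without passage 2, 4 or 14, and without replicate 2 the value was -0.20.

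Of 9 fibrillar collagen chains tested, 3 rose and 4 fell, where 28.3% and 27.2% of all genes did. Col1a1, the alpha 1 chain of type I collagen, rose by 0.42 (SE 0.11, adjusted p = 0.00648) from a median of 0.70 TPM to 1.09. Col2a1, the chain of cartilage collagen, fell by 0.52 (SE 0.096, adjusted p = 0.00087), and Col5a1, a chain that starts type I fibrils, fell by 0.24 (SE 0.0514, adjusted p = 0.00235). Col5a1 was the most abundant fibrillar chain, at 3.93, 6.93 and 9.94 TPM in ESC and 3.94, 5.92 and 8.64 in NrESC. Col5a2 fell by 1.29 (SE 0.289, adjusted p = 0.00271), from a median of 0.19 TPM to 0.08, and had 4 to 46 counts per library. At passages 0, 2 and 4 it was not called (0.21, -0.79 and -0.64), and from passage 6 on it was called lower at each passage (-2.25, -1.84, -2.91, -0.97 and -1.57). The 2 genes whose symbols name type XI collagen, for cartilage chains that also occur in type V fibrils, were higher: Col11a1 by 0.28 (SE 0.0631) and Col11a2 by 0.51 (SE 0.127), the first of them not without replicate 2. Col27a1, another cartilage fibrillar chain, fell by 0.55 (SE 0.14). The type I partner chain Col1a2 was not called (-0.16, SE 0.182, adjusted p = 0.466).

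Of 7 fibril-associated collagens tested, Col20a1 rose by 0.63 (SE 0.145, adjusted p = 0.00335) and Col9a2 and Col12a1 were called lower, where 28.3% of all genes rose and 27.2% fell. Col9a2, a chain of the collagen that coats cartilage fibrils, was at 9.64, 15.4 and 21.2 TPM in ESC and at 5.75, 12.7 and 19.1 in NrESC (-0.35, SE 0.0847, adjusted p = 0.0043). Col12a1 had 97 counts over 16 ESC libraries and 32 over 16 NrESC libraries, 6 of which were at 0 (-1.79, SE 0.44, adjusted p = 0.00472). Its highest count in any library was 13 in ESC and 7 in NrESC. It may have passed the filter through ESC libraries alone, so its call is no support for a drop. At passages 4 and 6 all 4 NrESC libraries were at 0, where 3 counts would be 0.0491 and 0.0425 CPM, against 0.166 and 0.163 CPM in ESC.

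Of 3 transmembrane collagens tested 2 rose, and of 3 anchoring, short-chain and other collagens all 3 rose, Col7a1, Col8a2 and Col26a1. Of all genes 28.3% rose and 27.2% fell, and with 3 genes each these classes are too small to be set against those shares. Col17a1, a collagen of epithelial attachment plaques, rose by 0.70 (SE 0.106, adjusted p = 0.000233), from a median of 0.83 TPM to 1.33. Col13a1, a membrane collagen of adhesion sites, rose by 0.57 (SE 0.0714, adjusted p = 6.6e-05) and was called at all 8 passages. Col26a1 had the largest rise, 1.15 (SE 0.14, adjusted p = 5.79e-05), with TPM of 0.41, 0.95 and 1.36 in ESC and 1.16, 1.85 and 2.44 in NrESC, and the arms overlapped only between 1.16 and 1.36. Over the passages its difference ran from 0.51 at passage 0 to 1.88 at passage 10. Col6a5, a beaded-filament chain, fell by 0.84 (SE 0.221, adjusted p = 0.0069). Its level was low, at a median of 0.085 TPM in ESC and 0.045 in NrESC, with at most 32 counts in any library. It was called lower at 4 of 8 passages and was not called at passage 14 (0.57). Col8a2 was called as well (0.68, SE 0.266, adjusted p = 0.0474), but the call was lost without passage 4, 6, 8, 10, 12 or 14, without replicate 1, with no filter on low counts and in DESeq2.

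Among the lysyl oxidases, Loxl1 and Loxl3 rose, Loxl2 fell in the mean, and Loxl4 was not called (0.24, SE 0.149, adjusted p = 0.187). Loxl3 was at 1.05, 1.40 and 2.01 TPM in ESC and 2.21, 2.55 and 2.84 in NrESC, so that all 16 NrESC libraries lay above all 16 ESC libraries. This occurred for 1.51% of all tested genes in that direction, and for 1 member; the reverse was seen for no member and 1.32% of all genes. Its log2 fold change was 0.81 (SE 0.0919, adjusted p = 3.96e-05), from 0.41 at passage 0 to 1.17 at passage 10. In GENCODE the exons of 19 of the 60 genes overlap those of another gene, by over 10% for Loxl3 alone: 535 bases (11.6%) of the Loxl3 exons overlap the antisense gene Htra2, which rose by 0.17 (SE 0.0336, adjusted p = 0.00125), and without a stated strand setting reads of the 2 genes cannot be told apart. Loxl1, linked to elastic fibres, rose by 0.69 (SE 0.118, adjusted p = 0.0005), from a median of 1.03 TPM to 1.57, with a difference of 0.02 at passage 14, which was not called.

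Loxl2, known to cross-link type IV collagen, was the least steady member. Its TPM was 1.67, 5.00 and 11.7 in ESC and 0.97, 2.07 and 7.22 in NrESC (-0.91, SE 0.319, adjusted p = 0.0291). The call was lost without passage 0 (adjusted p = 0.0686), 2 (0.076), 4 (0.0811) or 14 (0.0645). It was lower in NrESC at passage 0 (-1.82), 2 (-1.74), 4 (-1.73), 8 (-1.33), 12 (-0.57) and 14 (-1.25), and higher at passage 10 (1.51). At passage 10 the libraries held 2.63 and 2.40 TPM in ESC and 7.18 and 7.22 in NrESC, and at passage 14 they held 11.5 and 11.7 against 4.69 and 4.98. Both libraries of a group lay close to each other while the group means moved from passage to passage in both arms, with no labelled batch or date against which to set the moves.

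At the single passages the same directions did not hold for every member. Called members numbered 12 up and 4 down at passage 0, where 32.4% of all genes were called (17.6% up, 14.8% down). They numbered 14 and 12 at passage 2 (all genes 48.5%, with 24.7% up and 23.8% down), 10 and 16 at passage 4 (54.3%, 27.4% and 26.9%) and 15 and 15 at passage 6 (48.7%, 23.6% and 25.1%). At passage 8 they numbered 20 and 10 (69.8%, 35.2% and 34.6%), at passage 10 14 and 9 (55.5%, 27% and 28.5%), at passage 12 10 and 13 (47.1%, 23.1% and 24%) and at passage 14 5 and 15 (41%, 19.7% and 21.3%). At passage 14 most called members were lower. The direction was the same at all 8 passages for 12 members upward and 6 downward, against 20.1% and 18% of all genes (38.1% in all). Called at all 8 passages were Loxl3, Col26a1 and Col13a1 upward (6.44% of all genes) and Lama1 downward (4.99%). The size of the difference varied among passages for 31 members in a test with 7 numerator degrees of freedom, or 68.9% (all genes 69.4%).

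**Figure D4:**
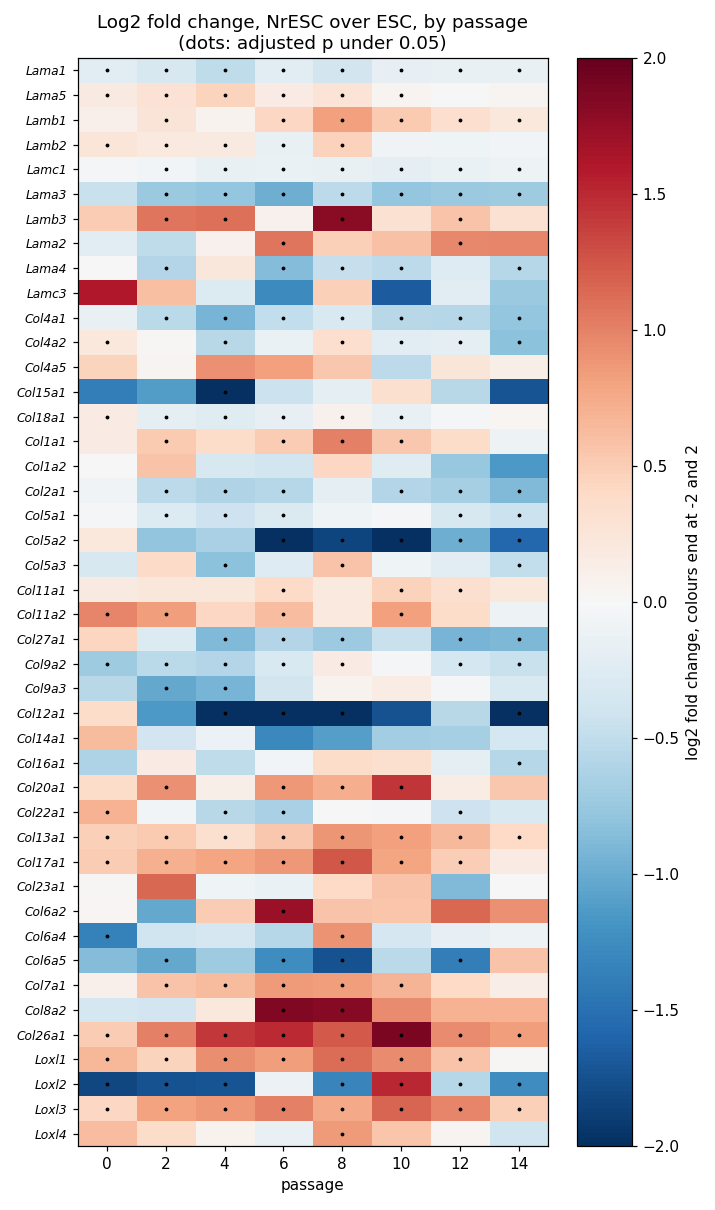
Heat map of the log2 fold change of NrESC over ESC (colour) at each passage for 44 of the tested members, 1 row per gene and 1 column per passage. Col26a1, Loxl3 and Col13a1 are higher and Lama1 lower at each of the 8 passages, and Loxl2 is lower at passages 0, 2 and 4 and higher at passage 10.

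The next comparison was along the passages within an arm. The level of Col4a1, Col5a1 and Col5a3 rose with passage number in both arms, and that of Col1a2 fell in both. In ESC the slopes were 0.0939 log2 units per passage for Col4a1 (SE 0.0189, adjusted p = 0.0397), 0.0778 for Col5a1 (SE 0.0155, adjusted p = 0.0397) and 0.158 for Col5a3 (SE 0.0256, adjusted p = 0.0177). In NrESC they were 0.0791 (SE 0.019, adjusted p = 0.04), 0.0694 (SE 0.0156, adjusted p = 0.0298) and 0.154 (SE 0.0267, adjusted p = 0.00849). Col1a2 fell by 0.147 per passage in ESC (SE 0.0303, adjusted p = 0.0437) and by 0.227 in NrESC (SE 0.0315, adjusted p = 0.00153). Slopes were called for 5 members in ESC, 3 up and 2 down (all genes 0.479%, with 0.219% up and 0.259% down), and for 6 in NrESC, 4 up and 2 down (2.4%, 0.745% and 1.66%). Called in NrESC but not in ESC was Col6a2, a chain of beaded-filament collagen near 0.1 TPM, at 0.158 per passage (SE 0.0353, adjusted p = 0.0294). Called in both arms were 3 members up and 2 down, against 0.0865% and 0.153% of all genes.

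**Figure D5:**
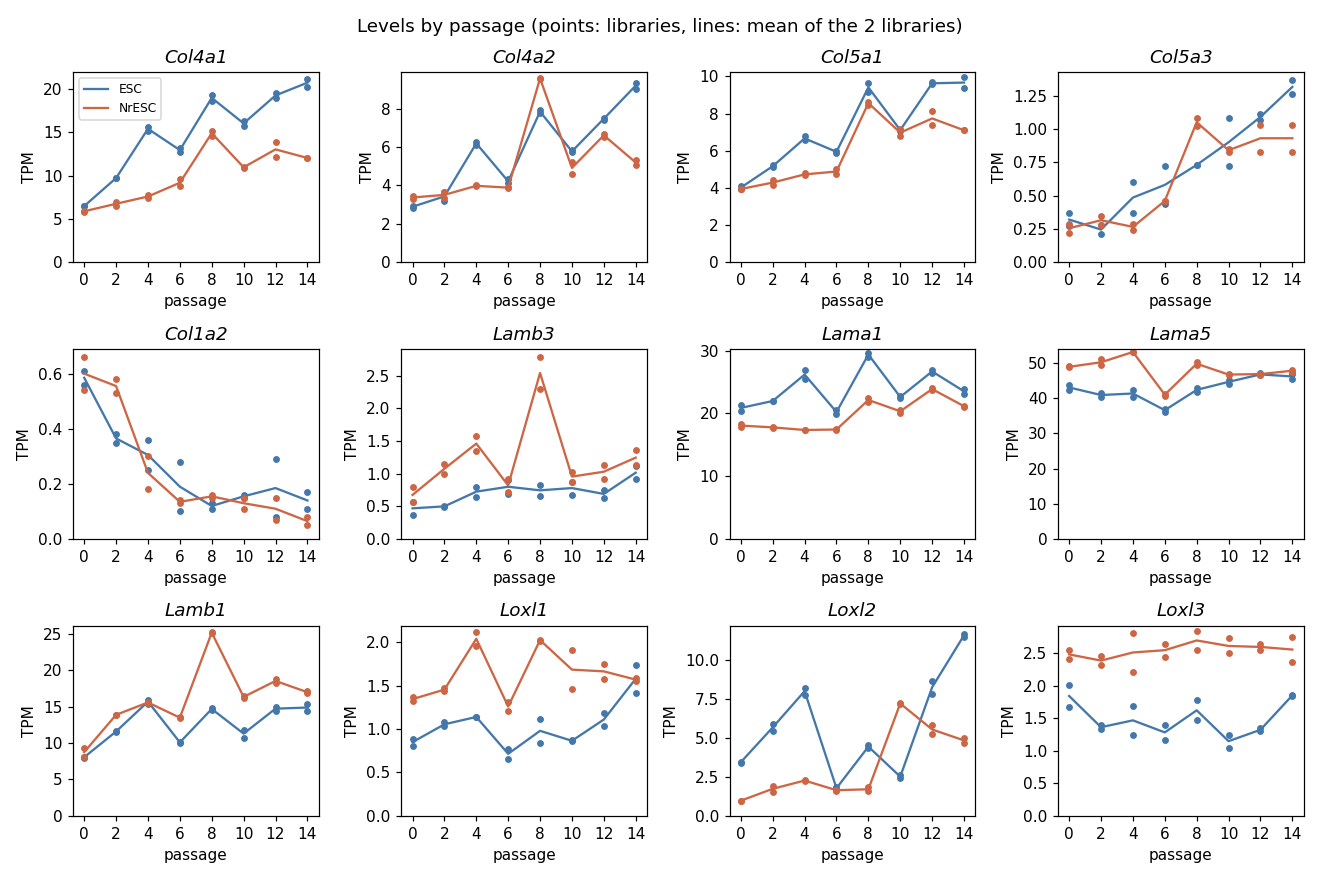
TPM over passage number for members named in the text, with ESC in blue and NrESC in orange, 1 point per library and lines through the means of 2 libraries. Col4a1 starts near 6 TPM in both arms and ends at 20.3 and 21.2 in ESC and at 12.1 and 12.0 in NrESC, and all 16 NrESC points of Loxl3 lie above the ESC points.

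Between passages 0 and 14 the group mean of Col4a1 rose 3.20-fold in ESC and 2.05-fold in NrESC, that of Col5a1 2.41-fold and 1.80-fold, and that of Col5a3 4.11-fold and 3.65-fold, while Col1a2 ended at 0.239 and 0.108 times its start. None of the calls on slopes held without passages 0 and 2. Without replicate 1 the slopes of Col1a2 in ESC and of Col4a1 and Col6a2 in NrESC were no longer called, and without replicate 2 that of Col4a1 in ESC. The course was not steady: Col4a1, Col5a1, Lama1 and Lamb1 were each higher at passage 8 than at passages 6 and 10 in both arms, in both libraries. The difference of the slopes between the arms was called for no member by edgeR or DESeq2, and in edgeR for 0.0133% of all genes, all downward. Its unadjusted p was under 0.05 for 1 member upward, Lama2, and 2 downward, Col5a2 and Col27a1, against 2.89% of all genes. Loxl2 had a slope of 0.177 in NrESC (SE 0.051, adjusted p = 0.0719) and 0.0654 in ESC (adjusted p = 0.476), a difference of 0.11 (SE 0.0674).

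The 15 members that failed the filter reached at most 0.17 TPM (Col9a1) and 12 counts in any library. Lox, the founding lysyl oxidase, had 29 counts in 16 ESC libraries and 11 in 16 NrESC libraries, and Col3a1, the chain of type III collagen, 5 and 4. Both are best known as products of fibroblasts.

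The partners of these proteins were examined as 5 lists in the mean of 8 passages. Of 19 enzymes that fold and cross-link collagen, 7 rose and 6 fell (median -0.03). Of all genes 28.3% rose and 27.2% fell in this comparison, with a median of 0.00, and the counts of this list and of the next 4 are to be read against those shares. The peptidyl-prolyl isomerase Fkbp10 rose from 8.50 ± 0.505 to 14.5 ± 1.67 TPM (SD over 8 passages; 0.78, SE 0.0541), the lysyl hydroxylase Plod1 rose by 0.50 (SE 0.0592), and Crtap, part of the prolyl 3-hydroxylation complex, fell by 0.32 (SE 0.042). Of 15 genes for procollagen processing and matrix proteases, 6 rose and 3 fell (median -0.01). Mmp11, a metalloprotease, rose by 0.70 (SE 0.087), Timp1, an inhibitor of such enzymes, by 0.28 (SE 0.0388), and Pcolce2, an enhancer of procollagen C-proteinase, fell by 0.60 (SE 0.0689).

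Of 14 other basement membrane genes 5 rose and 4 fell (median -0.10). The perlecan gene Hspg2 rose by 0.20 (SE 0.0414), and the fibronectin gene Fn1 (371 ± 43.0 to 334 ± 34.4 TPM, SD over 8 passages; -0.13, SE 0.0254) and Smoc1 (-0.49, SE 0.0785) fell. Of 16 receptors for collagen and laminin 7 rose and 2 fell (median 0.05). Bcam, a receptor for laminin alpha 5, rose from 133 ± 27 to 196 ± 33.8 TPM (SD over 8 passages; 0.58, SE 0.0426) and the integrin chain Itga6 by 0.27 (SE 0.0266), while Ddr2, a receptor for fibrillar collagen, fell by 1.80 (SE 0.133). Of 15 signals that regulate matrix genes 3 rose and 5 fell (median -0.20). Tgfb1 rose by 0.98 (SE 0.0946), Ccn2 fell by 0.73 (SE 0.0904) and the receptor Tgfbr1 by 0.26 (SE 0.0327).

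Markers of cell types were set beside these results, with 28.3% of all genes up and 27.2% down in the mean. Of 11 endoderm markers tested 1 rose and 5 fell (median -0.19), of 6 for mesoderm and definitive endoderm none rose and 4 fell (median -0.41), of 5 for neuroectoderm 2 rose and 3 fell (median -0.47), of 7 for trophoblast 2 rose and 2 fell (median 0.11) and of 5 for fibroblasts 1 rose and 2 fell (median 0.14). At passage 8, where the most members were called up and 35.2% of all genes rose and 34.6% fell, 6 of 9 stem cell markers were lower and 3 higher (median -0.46). Among the lower were Zfp42 at -1.32, Sox2 at -0.94 and Nanog at -0.93, and the higher were Dppa5a at 0.72, Pou5f1 at 0.21 and Tfcp2l1 at 0.20. The summed TPM of the stem cell list at passage 8 was 12141 and 12231 in NrESC, against 10541 and 10595 in ESC. There 4 endoderm markers were called up and 3 down (median 0.46), with values from 1.37 for Gata6 and 0.82 for Gata4 to -1.11 for Dab2 and -1.31 for Cubn. The summed TPM of the endoderm list was 27.4 and 26.8 in NrESC, against 16.2 to 21.4 in its other libraries, and in ESC at passage 8 it was 26.8 and 26.4. Trophoblast markers were called up in 5 of 7 cases and down in 2 (median 0.55), mesoderm markers in 0 and 2 of 6 (median -0.40), neuroectoderm markers in 1 and 3 of 5 (median -0.47) and fibroblast markers in 2 and 2 of 5 (median -0.09). At passage 14, 15 members were lower and 5 higher, and of all genes 19.7% were up and 21.3% down. There 0 of 11 endoderm markers were up and 6 down (median -0.53), and 2 of 7 trophoblast markers were up and 5 down (median -1.01). The part of any of these markers in the members' differences, in the mean or at these passages, was not tested.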

How the data were processed

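The authors deposited per library a table of expected counts per gene, not normalized, which RSEM had estimated per the file headers. A second deposited table holds TPM, in which the authors corrected for gene length and scaled each library to an equal sum. The submitters' processing notes name STAR, Cufflinks 2.2.1, HTSeq 0.12.4, DESeq2, edgeR, RSEM and mm9 with no roles. The annotation, trimming and strand setting are not given in the sources used here. Expected counts were rounded (0.837% were not whole).

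The fit used edgeR 4.0.16 (R 4.3.3): filterByExpr on 16 groups kept 15036 of 24890 genes, TMM scaling followed, then the quasi-likelihood test with Benjamini-Hochberg adjustment over all genes tested and a threshold of 0.05. For the mean comparison both libraries of a group were added up, giving 16 units, with passage as a factor (7 residual degrees of freedom). Each passage and the variation among passages were tested on 32 libraries (16 residual degrees of freedom), and slopes over passage number on the 16 units (12). Fold changes are log2 NrESC over ESC and come from the deposited counts. Levels are TPM.

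Named members are the 12 largest called differences with 1 sign at 7 or more passages, the 10 highest mean TPM and the 3 smallest p of each list. Members outside it (Col4a2, Col1a1, Col2a1, Col1a2, Col5a3, Col13a1, Col8a2, Loxl4, Lama2, Lama4, Col27a1, Col6a2, Col7a1, Col11a1, Col11a2) were chosen after their values were seen. The members and lists were chosen with earlier results of these data known. The 2 libraries of a group differed by more than sampling noise (chi-square per degree of freedom 1.70 to 3.21). Promoter sequences are from RefSeq (GRCm38.p6). Alternatives included DESeq2 1.42.0, no filter, library as the unit, a replicate block and leaving out each passage or replicate. Of the genes that the rule names, 1 is not reported here.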

Additional observations from a re-analysis of the deposited data

Results flagged for a closer look

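The difference between the arms varied among the passages for 31 of the 45 tested members (68.9%), near the share of all genes (69.4%). The following 8 were also called higher in NrESC at 1 passage or more and lower at another (adjusted p of the variation from edgeR's quasi-likelihood F test, 2 libraries per group). The share of all genes called in both directions was not counted, so these 8 cannot be set against a background. For Loxl2 the adjusted p was 4.46e-25 and it was called higher at passage 10 only. For Col4a2 it was 1.04e-14, higher at passages 0 and 8. For Lamb2 it was 7.42e-13, lower at passage 6 and higher at 0, 2, 4 and 8. For Col18a1 it was 8.33e-10, higher at passages 0 and 8, and for Col9a2 2.81e-09, higher at passage 8. For Col22a1 it was 0.000632, for Col5a3 0.00367 and for Col6a4 0.0201. These tests use only how far both libraries of a group differ, and the labels do not describe them as separate cultures.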

How the results depend on the processing

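Most results kept their direction and side of the threshold. Of the alternative values for single mean differences 628 did so, 27 gained and 18 lost the call and 2 changed sign. Those 2 were Col23a1, not called in the first place (0.12), at -0.00943 without passage 2 and from -0.22 to 0.48 when 1 replicate was left out. With no filter 7 members were called down at passage 0 in place of 4. Slopes depended most on the setting: with library as the unit 12 members were called up in ESC and 15 in NrESC, with and without the replicate block, and without passage 8 6 and 10, with DESeq2 7 and 9, and without passages 0 and 2 0 and 0, and 0 and 0 down. Leaving out 1 replicate gave 14 to 15 called up and 13 to 14 down in the mean, 2 to 3 and 0 to 1 for slopes in ESC, 2 to 4 and 2 down for slopes in NrESC, and 0 for the difference of slopes. At single passages it gave 7 to 10 up and 3 to 4 down at passage 0, 10 to 12 and 8 to 12 at 2, 9 to 11 and 12 to 16 at 4, 11 to 12 and 12 to 14 at 6, 16 to 20 and 7 to 9 at 8, 10 to 15 and 8 to 11 at 10, 7 to 9 and 9 to 13 at 12, and 3 to 5 and 10 to 14 at 14. Replicate numbers did not pair the libraries (correlations of deviations from -0.019 to 0.0616). Depth limits members under about 0.1 TPM, where most libraries hold few counts.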
